A study of Mus musculus with 4 samples.

Results

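The transcripts of 6 genes were followed in mouse embryonic fibroblasts (MEFs): Serpinf1, which encodes pigment epithelium-derived factor (PEDF), and Pnpla2, Lrp6, Rpsa, Plxdc1 and Plxdc2, which encode proteins that have been described as receptors or binding partners of PEDF. They were chosen by name, and all 6 were found among the 55487 genes counted. Wild-type MEFs, prepared from mid-gestation C57BL/6J embryos and grown in DMEM with 10% fetal bovine serum, were left untreated (control) or kept for 24 h with PEDF at 100 ng/mL, a protein made in and purified from mammalian cells. There were 2 control and 2 PEDF libraries of polyadenylated RNA, and each experiment (1 or 2) gave 1 library of each kind. The cells of each experiment came from different embryos, so the replicates are separate MEF preparations. The sample labels give the cells as passage 2, whereas the text of the study places the sequenced MEFs 1 passage later. MEFs are a primary mixed culture, and the control medium itself contained serum.

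PEDF is a secreted glycoprotein of the serpin family that does not inhibit proteases, and it is known for blocking the growth of blood vessels and for protecting neurons. It has no single established receptor. Adipose triglyceride lipase (ATGL, encoded by Pnpla2) is an intracellular lipase that is also described as a membrane receptor of PEDF, LRP6 is a Wnt co-receptor, RPSA is a protein of the small ribosomal subunit that is also found at the cell surface as a laminin receptor, and PLXDC1 and PLXDC2 are single-pass membrane proteins with a plexin domain. The comparison asks whether adding PEDF was accompanied by a change in the transcripts of PEDF or of these proteins. The added protein itself leaves no reads.

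The control libraries held 14722848 and 18144640 counts and the PEDF libraries 15361948 and 17787193, and between 22135 and 22647 genes were detected per library. Levels within a gene are given as CPM (counts per 1000000 counts of a library, after scaling by edgeR's TMM factors), and levels between genes as TPM (transcripts per 1000000 transcripts, which also divides by gene length). All 10 fibroblast markers examined had a mean TPM of at least 1, and their summed TPM lay between 14760.2 and 19947. The summed TPM was 84.7 to 107 for 6 macrophage markers, 218 to 293 for 4 skeletal muscle markers, 109 to 129 for 4 neural markers, 6.83 to 7.24 for 5 endothelial markers and 4.88 to 6.80 for 4 epithelial markers. For the 4 adipocyte markers it was 0.434 to 0.937, and Adipoq had no count in any library. In such bulk RNA, fewer cells of a type and less RNA per cell cannot be told apart.

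All members but Plxdc1 were clearly transcribed, with TPM values over a wide range, whereas Plxdc1 was near the limit of detection. Over the 4 libraries the mean TPM was 1461 ± 80.8 (SD, n = 4) for Rpsa, 544 ± 28.4 for Serpinf1, 45.8 ± 2.43 for Plxdc2, 27.6 ± 1.05 for Lrp6, 20.9 ± 1.21 for Pnpla2 and 0.331 ± 0.182 for Plxdc1. The ranges of neighbours in this order did not overlap between libraries. Among the 26183 genes with a count, Rpsa ranked 56th, Serpinf1 202nd, Plxdc2 3300th, Lrp6 5149th and Pnpla2 6255th, and 26.7% of the genes were below Plxdc1.

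**Figure D1:**
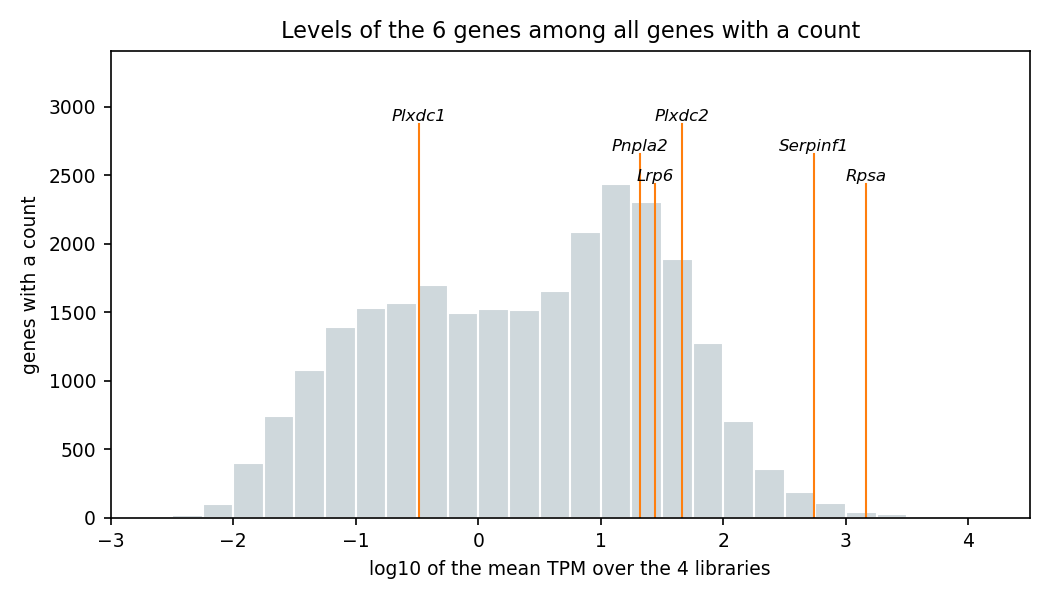
Histogram of the log10 mean TPM over the 4 libraries for genes with a count, with a vertical line at each of the 6 genes. Rpsa (1461 TPM) and Serpinf1 (544 TPM) stand in the upper tail, Plxdc2, Lrp6 and Pnpla2 (20.9 to 45.8 TPM) in the upper mode, and Plxdc1 (0.331 TPM) in the lower mode.

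With the treatment as the only term, the quasi-likelihood test of edgeR called no difference between the PEDF and control libraries in any member. Of the 6 members, 0 had an adjusted p under 0.05, 0 had an unadjusted p under 0.05 (against 6.88% of all genes tested), and DESeq2 and limma also called 0. In the same edgeR test 0.00516% of the 19384 genes tested were called, which is the single gene Malat1, a nuclear noncoding RNA that is named here because its value was seen (log2 fold change -0.65, adjusted p = 0.0167). The median size of the log2 fold change was 0.05 over the members and 0.14 over all genes tested. The latter include genes with as few as 10 counts in all, and genes of a level like that of the members were not compared. An exact permutation test of 2 libraries against 2 cannot give a two-sided p below 0.333. Each pair of libraries shared a MEF preparation, so the experiment number was also used as a block. In edgeR with this block, 1 of the 6 members was called, Rpsa, beside 3.75% of all genes tested.

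**Figure D2:**
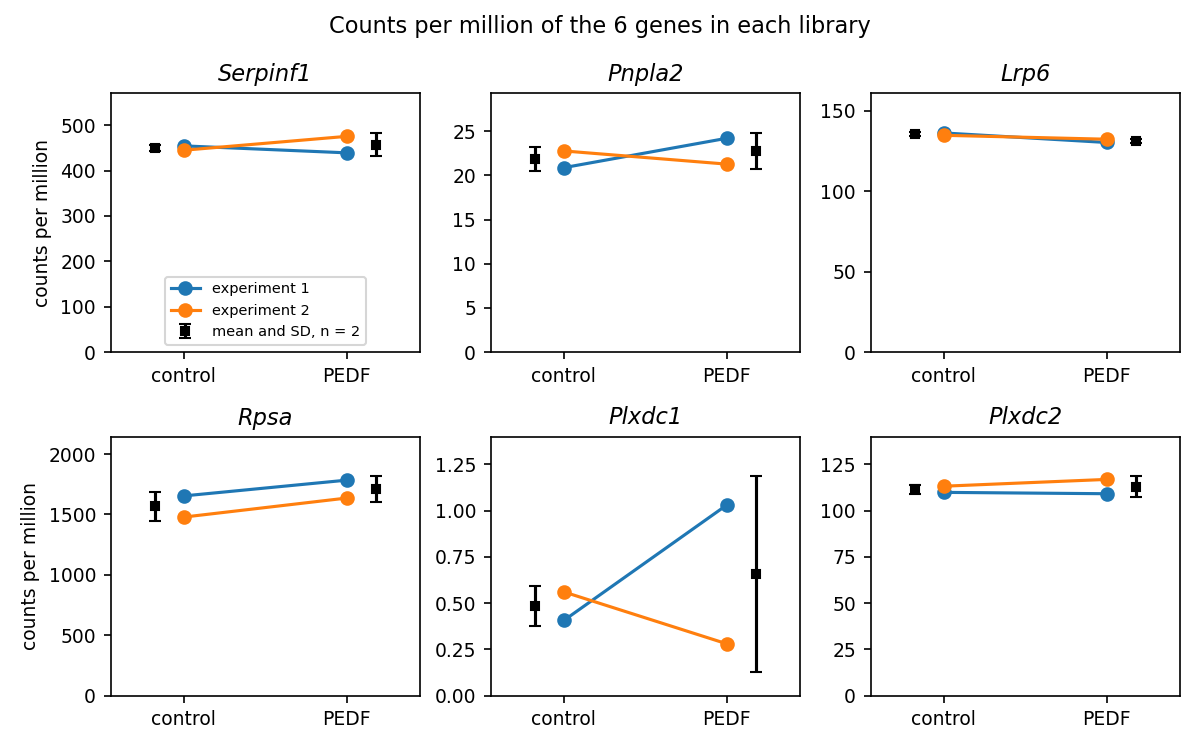
CPM of each gene in the control and PEDF library of experiment 1 and experiment 2, joined by a line within an experiment, with the mean and SD of each group (n = 2) in black. Every axis starts at 0. The lines of Rpsa rise in both experiments, those of Lrp6 fall slightly in both, and those of Serpinf1, Pnpla2, Plxdc1 and Plxdc2 run in opposite directions.

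Serpinf1 (ENSMUSG00000000753; chr11:75409769-75422701 in GRCm38, minus strand) has 2359 exonic bases and a coding sequence of 1251 bases. The control MEFs of experiments 1 and 2 had 6703 and 7932 counts, or 454 and 445 CPM. The PEDF-treated MEFs had 6822 and 8466 counts, or 439 and 475 CPM. The lowest and the highest library were thus both PEDF libraries, and the groups overlapped. The log2 fold change was 0.02 (standard error 0.07, 95% interval -0.12 to 0.17, adjusted p = 0.957 in edgeR). In experiment 1 the PEDF library had 0.966 times the control level (95% counting interval 0.934 to 1.00), and in experiment 2 it had 1.07 times (1.04 to 1.10), so the direction differed between the experiments. These intervals describe counting error alone, since each experiment had 1 library of each kind, and they leave out variation between cultures. PCR can also copy 1 molecule into several reads, which the intervals leave out as well.

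Among the 69 serpin genes in the files, Serpinf1 had the second highest mean TPM. The highest was Serpinh1, the collagen chaperone HSP47, with 4816 TPM. Serpinf2, which encodes alpha-2-antiplasmin and lies close to Serpinf1 in the genome, had 2.22 and 0.838 TPM in the controls of experiments 1 and 2 and 2.50 and 1.04 TPM with PEDF. Its level therefore followed the experiment, with a log2 difference of -1.38 between experiment 2 and experiment 1 (adjusted p = 0.0487 in edgeR with the treatment as a term), on 87 counts in all. Serpinf1 had a log2 difference of 0.04 between the experiments (adjusted p = 0.755 in the same edgeR fit). The genes nearest to Serpinf1, Smyd4 and Gm12336, did not overlap it.

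The genes for enzymes that phosphorylate PEDF (casein kinase 2 and protein kinase A) or cleave it (matrix metalloproteinases) were expressed alongside it. Of 8 such genes, 0 were called in either direction with or without the block. Mmp2 had 514 to 570.5 TPM over the 4 libraries, and Mmp14, a membrane-bound activator of MMP2, had 444 to 488 TPM. Mmp9, which encodes a gelatinase, had 15.5 to 21.6 TPM, with a log2 fold change of -0.27 (adjusted p = 0.719 in edgeR).

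Pnpla2 (ENSMUSG00000025509), the gene of ATGL, which removes the first fatty acid from stored triglyceride, is found at chr7:141455198-141460743 (plus strand), with 3020 exonic bases and 1458 coding bases. The controls of experiments 1 and 2 had 308 and 406 counts (20.9 and 22.8 CPM), and the PEDF libraries had 376 and 379 counts (24.2 and 21.3 CPM). The highest value was the PEDF library of experiment 1 and the lowest the control of that experiment, and the values of experiment 2 lay between them. The log2 fold change was 0.06 (standard error 0.12, 95% interval -0.19 to 0.30, adjusted p = 0.942 in edgeR). The ratio of PEDF to control was 1.16 in experiment 1 (counting interval 0.994 to 1.35) and 0.935 in experiment 2 (0.810 to 1.08). Each of these intervals holds 1, so neither experiment showed a difference at this depth.

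The partners of ATGL in lipolysis were tested beside it. Of 13 genes listed 11 had enough counts, 0 were called with or without the block, and the median log2 fold change was 0.05, against 0.00 over all genes tested. Abhd5 (CGI-58), the activator of ATGL, had 15.3 and 14.3 TPM in the controls of experiments 1 and 2 and 17.2 and 17.7 TPM with PEDF. Both PEDF libraries were thus above both controls, and the log2 fold change was 0.26 (adjusted p = 0.696 in edgeR, and 0.0620 with the block). In CPM, groups that did not overlap, in either direction, were found for 37.3% of all genes tested. G0s2, the ATGL inhibitor, had 6.13 and 6.71 TPM in the controls and 10.3 and 8.90 TPM with PEDF on 163 counts in all. Its log2 fold change was 0.60 (adjusted p = 0.739 in edgeR, and 0.352 with the block). Lipe, hormone-sensitive lipase, had 3.29 to 4.33 TPM, and Plin2, a lipid droplet coat protein, had 59.0 to 64.9 TPM. Of 6 other patatin-like genes 4 were tested, and Pnpla6, a lysophospholipase, fell with the block by 0.26 on the log2 scale (adjusted p = 0.0382 in edgeR), and when length and GC trends were removed the log2 fold change was -0.20 (adjusted p = 0.231).

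Lrp6 (ENSMUSG00000030201) is found at chr6:134446476-134566965 (minus strand), with 13672 exonic bases and 4839 coding bases, and encodes a receptor that binds Wnt together with Frizzled proteins. The controls had 2008 and 2401 counts (136.1 and 134.6 CPM), and the PEDF libraries had 2023 and 2355 counts (130.2 and 132.2 CPM). Lrp6 was the only member whose groups did not overlap in CPM, with both PEDF values below both controls. A lack of overlap in either direction was found for 37.3% of all genes tested and this order of the groups for 18.4%, so 1 of 6 is not above the background. The log2 fold change was -0.04 (standard error 0.07, 95% interval -0.19 to 0.10, adjusted p = 0.922 in edgeR). The ratio was 0.957 (counting interval 0.899 to 1.02) in experiment 1 and 0.982 (0.927 to 1.04) in experiment 2.

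The genes around LRP6 were read in the same way. None of the 13 tested co-receptors, chaperones and secreted regulators of LRP6 was called with or without the block in edgeR, and 1 had an unadjusted p under 0.05 in each fit. Lrp5, the closest relative of Lrp6, had 28.9 to 32.1 TPM, and Mesd, the chaperone of both receptors, had 34.9 to 38.7 TPM. Dkk3 (154 to 164 TPM) was the most abundant of the Dickkopf genes, Dkk2 had 27.5 to 31.5 TPM and Dkk1, which encodes the best known LRP6 antagonist, had 0.550 to 1.13 TPM. Of 12 genes of the beta-catenin core, Csnk1g1, a casein kinase that can phosphorylate LRP6, fell by 0.25 on the log2 scale with the block (adjusted p = 0.0120 in edgeR, and a log2 fold change of -0.16 with an adjusted p of 0.271 once length and GC trends were removed). Ctnnb1, which encodes beta-catenin, had 485 and 470.4 TPM in the controls and 484 and 493 TPM with PEDF.

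Of 14 tested target genes of Wnt and beta-catenin, 1 rose and 1 fell with the block in edgeR, where 3.75% of all genes tested were called, and 0 were called without it. DESeq2 with the block called 0 of them, and its independent filtering left Nkd1 and Myc without an adjusted p (unadjusted p = 0.0976 and 0.0580). Nkd1, a feedback inhibitor of the pathway, had 10.3 and 9.40 TPM in the controls and 15.2 and 10.6 TPM with PEDF, so that its difference came mainly from experiment 1 (log2 fold change 0.39, adjusted p = 0.0280 in edgeR with the block, and 0.38 with an adjusted p of 0.0546 when length and GC trends were removed). Myc had 55.0 and 68.6 TPM in the controls and 46.2 and 55.3 TPM with PEDF (log2 fold change -0.26, adjusted p = 0.0107 with the block in edgeR). After the length and GC trends were removed, Myc was at -0.33 (adjusted p = 0.000264 in edgeR). Axin2, the most direct target gene of the pathway, had 11.1 and 11.4 TPM in the controls and 11.4 and 10.5 TPM with PEDF (log2 fold change -0.01, adjusted p = 0.993 in edgeR).

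Rpsa (ENSMUSG00000032518) is found at chr9:120127689-120132369 (plus strand), with 3170 exonic bases and 885 coding bases. Its counts carry an uncertainty that the other members do not have. Of the 50-base stretches of its longest protein-coding transcript (1938 bases) 44.0% also occurred in transcripts of 28 other genes, mostly processed pseudogenes. For each of the other 5 members it was 0%. Within the coding sequence alone the share was larger, with 74.6% of the stretches found in the pseudogene Rpsa-ps10. Unique mapping leaves out reads that fit several places equally well. In bases 178 to 297 of the coding sequence, counted from 1 at the A of the start codon, the 3 pseudogenes with the highest counts read as follows, with capitals at the bases that differ between Rpsa and at least 1 pseudogene in the Rpsa line, and at the bases that differ from Rpsa in the other lines. They are shown because reads of such a stretch can be assigned only by these few bases.
Rpsa: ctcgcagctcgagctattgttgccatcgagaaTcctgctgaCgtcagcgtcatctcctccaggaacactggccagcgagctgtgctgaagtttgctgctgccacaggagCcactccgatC
Rpsa-ps7: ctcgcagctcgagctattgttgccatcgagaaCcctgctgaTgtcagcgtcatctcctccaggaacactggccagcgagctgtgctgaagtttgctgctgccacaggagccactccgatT
Rpsa-ps10: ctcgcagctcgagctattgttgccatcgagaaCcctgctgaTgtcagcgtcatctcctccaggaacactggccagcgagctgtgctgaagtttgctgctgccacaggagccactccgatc
Rpsa-ps2: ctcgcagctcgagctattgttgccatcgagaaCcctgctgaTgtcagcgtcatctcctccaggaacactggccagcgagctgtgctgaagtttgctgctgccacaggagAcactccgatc

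All 3 pseudogenes carried T210C and C219T, Rpsa-ps7 also carried C297T, and Rpsa-ps2 also carried C287A. Over the coding sequence, the identity to Rpsa was 98.9% for Rpsa-ps7 (chr17:82409935-82410819), 99.3% for Rpsa-ps10 (chr3:150072658-150073542) and 99.0% for Rpsa-ps2 (chr10:128776371-128777250), all on the minus strand of GRCm38. Rpsa-ps7 had 851 and 903 counts in the controls and 976 and 1090 counts with PEDF. Rpsa-ps10 had 830 and 924 counts in the controls and 1025 and 1030 counts with PEDF. Both had a log2 fold change of 0.20, with adjusted p of 0.707 and 0.713 in edgeR. Reads of Rpsa and of these copies may have been divided between the genes in the counting, and how many were lost was not tested. The small nucleolar RNA genes Gm26448, Snora62 and Gm24044 lie within Rpsa and had at most 8 counts in a library.

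Rpsa had 24401 and 26368 counts in the controls (1653 and 1478 CPM) and 27724 and 29140 counts with PEDF (1784 and 1636 CPM). In each experiment the PEDF library was the higher, and both libraries of experiment 1 were above their counterparts in experiment 2. The control of experiment 1 was nevertheless above the PEDF library of experiment 2, so the groups overlapped. Without the block the log2 fold change was 0.13 (standard error 0.08, 95% interval -0.04 to 0.29, adjusted p = 0.768 in edgeR). With the block it was 0.13 (standard error 0.04, 95% interval 0.05 to 0.21, adjusted p = 0.0424 in edgeR). The block leaves 1 residual degree of freedom per gene, and the spread was then taken as shared by all genes. DESeq2 with the block did not call Rpsa (adjusted p = 0.121).

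The ratio of PEDF to control for Rpsa was 1.08 (counting interval 1.06 to 1.10) in experiment 1 and 1.11 (1.09 to 1.13) in experiment 2. The difference between the preparations was of similar size and was the only one called among the members. The log2 difference of experiment 2 from experiment 1 was -0.14 (standard error 0.04, adjusted p = 0.0138 in edgeR with the treatment as a term, and 0.0511 in DESeq2), where 4.49% of all genes tested were called. The other 5 members had adjusted p between 0.623 and 0.991 for this difference in edgeR.

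**Figure D3:**
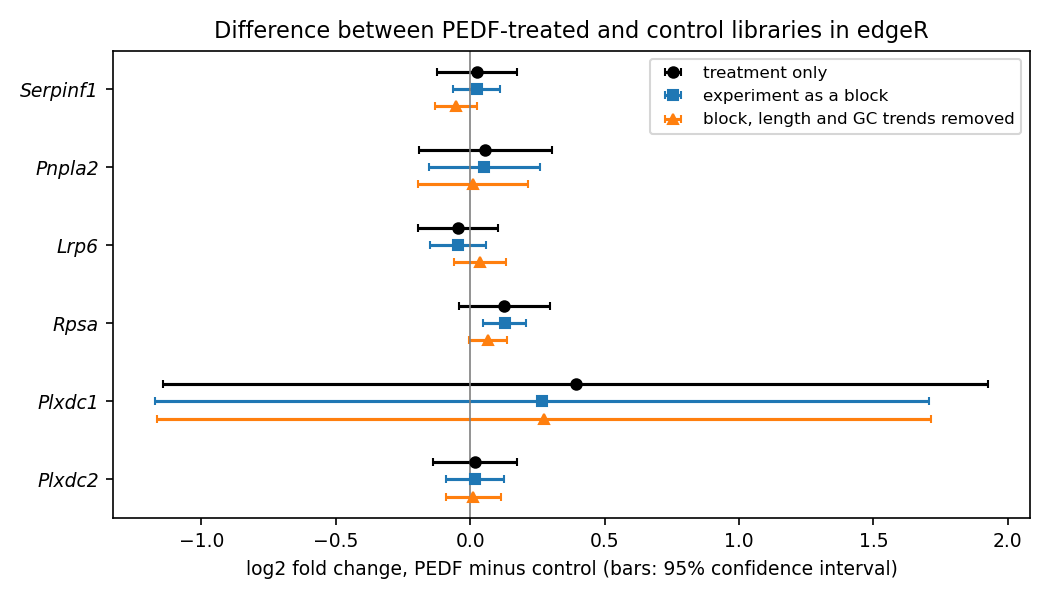
Log2 fold change of each gene, PEDF minus control, with its 95% interval from edgeR, in 3 fits: treatment only, with the block, and with the block after removal of length and GC trends. Rpsa with the block (0.13, interval 0.05 to 0.21) is the only point whose interval leaves out 0, and after the removal of the trends it is at 0.07.

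Short genes were higher and long genes lower in the PEDF libraries, and this trend moved with the result on Rpsa. For each doubling of exon length the log2 ratio of PEDF to control had a slope of -0.040 in experiment 1 and -0.056 in experiment 2, over 10722 genes. Between the controls of the experiments the same slope was 0.050 in experiment 2 against experiment 1. When the length trend of each library was taken out in the fit with the block, the log2 fold change of Rpsa was 0.07 (adjusted p = 0.527 in edgeR), and with length and GC content together it was 0.07 (adjusted p = 0.478). In those fits Lrp6, the longest member in exonic bases, had a log2 fold change of 0.04 in place of -0.04. Serpinf1, the shortest in exonic bases, had -0.06 and -0.05 in place of 0.02, and no member was called. Length here is that of all annotated exons, 3170 bases for Rpsa against a coding sequence of 885. Whether the trend comes from the treatment or from the preparation of the libraries was not tested.

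**Figure D4:**
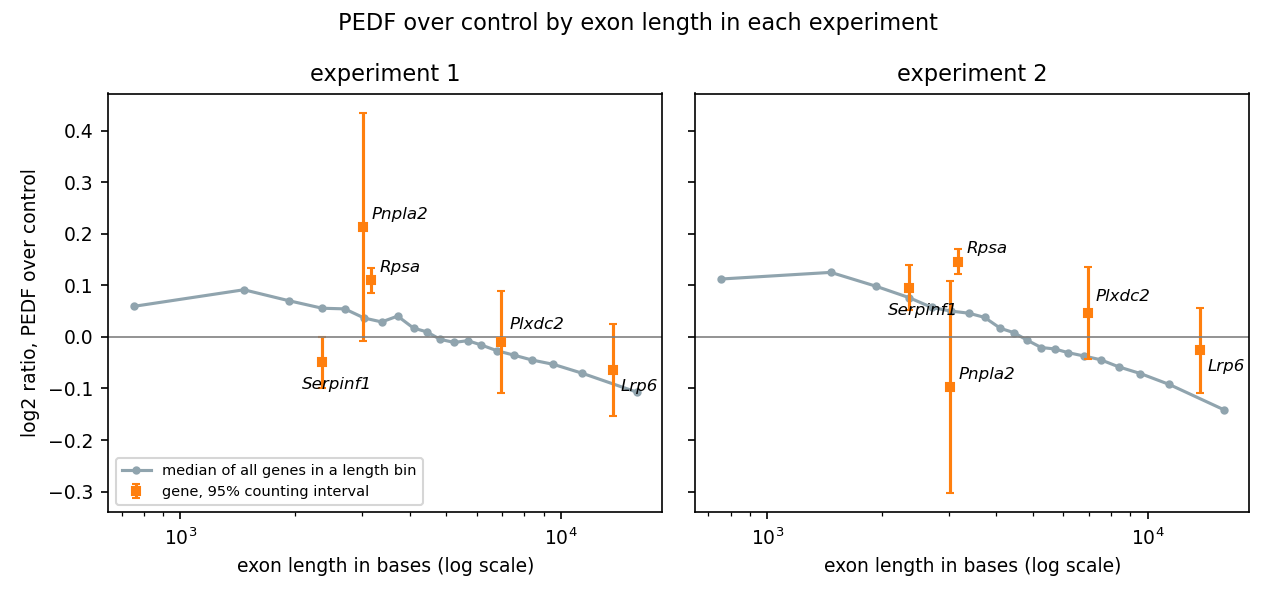
Log2 ratio of PEDF over control in experiment 1 and experiment 2 against exon length on a log scale, with the median of all genes in 20 bins of length in grey and 5 of the 6 genes with 95% counting intervals in orange. The grey line goes down with length in both experiments, and Rpsa lies above it in both. Plxdc1 is left out because of its wide interval.

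The other proteins of the small ribosomal subunit were measured beside Rpsa. Of 32 tested genes, 10 rose and 0 fell with the block in edgeR, where 3.75% of all genes tested were called. Without the block 0 were called in edgeR, and the median log2 fold change was 0.09. DESeq2 called 6 with the block, all higher, and 1 without it (Rps27a, adjusted p = 0.0223). Of the same 32 genes, 10 were called lower in experiment 2 than in experiment 1 and 0 higher, with a median log2 difference of -0.11. The largest were Rps27a, which encodes a ubiquitin fusion protein (553 and 631 TPM in the controls, 736 and 787 TPM with PEDF, log2 fold change 0.39), and Rps14 (812 and 668 TPM in the controls, 985 and 796 TPM with PEDF, log2 fold change 0.29). With the block their adjusted p in edgeR was 1.7e-15 and 5.71e-09. Rack1, a scaffold protein of the subunit, had a log2 fold change of 0.21 (adjusted p = 6.19e-05). Rpsa was 11th of 33 genes in the size of its log2 fold change with the block and 6th in mean TPM. After length and GC trends were removed, 4 of the 32 were called, all higher, and the median was 0.01. That fit called 421 of the 19384 genes tested.

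RPSA at the cell surface binds laminin. Of 11 tested genes for laminin chains, 0 rose and 6 fell with the block in edgeR, where 3.75% of all genes tested were called. Without the block 0 were called, and the median log2 fold change was -0.24. Lama5 had 36.9 and 45.2 TPM in the controls and 26.9 and 31.0 TPM with PEDF (log2 fold change -0.48, adjusted p = 8.97e-17 with the block). Lamc1 had 174 and 207 TPM in the controls and 147 and 163 TPM with PEDF (log2 fold change -0.27, adjusted p = 1.7e-07 with the block in edgeR). Lamb1 had 144 and 182 TPM in the controls and 123 and 154 TPM with PEDF (log2 fold change -0.21, adjusted p = 0.000222 with the block in edgeR). The others called were Lama2, Lama4 and Lamb2, and all 6 of these chains were also called higher in experiment 2 than in experiment 1. With length and GC trends removed 4 of them were still called, all lower, where 421 of the 19384 genes tested were called. DESeq2 with the block also called 4 laminin genes, among 119 genes called in all.

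Plxdc1 (ENSMUSG00000017417) is found at chr11:97923238-97986444 (minus strand), with 4836 exonic bases and 1500 coding bases. Plxdc2 (ENSMUSG00000026748) is found at chr2:16356304-16755839 (plus strand), with 6947 exonic and 1590 coding bases. PLXDC1 was first known from tumor endothelium. The coding sequences were identical at 925 of 1468 aligned bases (63.0%), with at most 14 identical bases in a row, so reads of the paralogs could be told apart. The stretch below, bases 356 to 445 of Plxdc1 and 425 to 514 of Plxdc2, is shown because it is among the most alike, with 67 of 90 bases identical and capitals at the 23 that differ.
Plxdc1: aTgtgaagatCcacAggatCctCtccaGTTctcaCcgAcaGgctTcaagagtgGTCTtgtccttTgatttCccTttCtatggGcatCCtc
Plxdc2: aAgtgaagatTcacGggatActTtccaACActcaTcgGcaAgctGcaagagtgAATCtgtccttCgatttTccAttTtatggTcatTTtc

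Plxdc2 was by far the more abundant paralog in these MEFs. In TPM it was between 73.8 and 290.0 times as high as Plxdc1 in each library. Plxdc2 had 1622 and 2020 counts in the controls (110 and 113 CPM) and 1697 and 2083 counts with PEDF (109 and 117 CPM), so the groups overlapped. Its log2 fold change was 0.02 (standard error 0.07, 95% interval -0.14 to 0.17, adjusted p = 0.971 in edgeR). The ratio of PEDF to control was 0.993 (counting interval 0.928 to 1.06) in experiment 1 and 1.03 (0.971 to 1.10) in experiment 2.

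Plxdc1 had 6 and 10 counts in the controls of experiments 1 and 2 and 16 and 5 counts with PEDF. The PEDF libraries held both the highest and the lowest count. The log2 fold change was 0.39 (standard error 0.72, 95% interval -1.14 to 1.93, adjusted p = 0.933 in edgeR). The ratio was 2.53 (counting interval 0.941 to 7.90) in experiment 1 and 0.501 (0.134 to 1.61) in experiment 2, so a difference of this size was not detectable at this depth. Gm11633 and Gm22461 lie within Plxdc1 and had at most 1 count in a library.

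Reported ligands of the plexin domain receptors were abundant. Nid1, which encodes the basement membrane protein nidogen 1, had 373 and 458 TPM in the controls and 314 and 387 TPM with PEDF, and with the block it fell by 0.22 on the log2 scale (adjusted p = 1.93e-05 in edgeR, and 0.705 without the block). Nid2 had 135 to 174 TPM (log2 fold change -0.12, adjusted p = 0.142 with the block in edgeR), and Cttn, which encodes the actin-binding protein cortactin, had 277 to 292 TPM (log2 fold change 0.01). Of these 3 genes, 2 were called higher in experiment 2 than in experiment 1 and 0 lower in edgeR.

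Other genes whose products have been described to bind PEDF included collagen I, the perlecan gene Hspg2 and the ATP synthase subunit Atp5b. Of 8 tested, 3 fell with the block in edgeR, where 3.75% of all genes tested were called, and 0 were called without the block. DESeq2 with the block called 1 of these, Hspg2, and gave Col1a1 and Col1a2 an adjusted p of 0.117. Col1a1 had 8332 and 10587 TPM in the controls and 7226 and 8469 TPM with PEDF (log2 fold change -0.24, adjusted p = 6.36e-10 with the block in edgeR). Col1a2 had a log2 fold change of -0.12 (adjusted p = 0.0199 with the block, and -0.02 with an adjusted p of 0.894 after length and GC trends were removed). Hspg2 had 396 and 524 TPM in the controls and 285 and 364 TPM with PEDF (log2 fold change -0.48, adjusted p = 1.91e-29 with the block in edgeR). Atp5b had 717 to 747 TPM in the 4 libraries, with a log2 fold change of 0.02. Between the experiments, 3 of the 8 were called higher in experiment 2 and 0 lower in edgeR, where 4.49% of all genes tested were called.

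Of 8 genes reported elsewhere to respond to PEDF, Fasl had no count in any library and 7 were tested. With the block 1 fell, Thbs1, which encodes thrombospondin 1, an inhibitor of blood vessel growth (2276 and 2959 TPM in the controls, 1769.7 and 2433 TPM with PEDF, log2 fold change -0.30, adjusted p = 6.77e-13 in edgeR with the block). Vegfa, the main growth factor of blood vessels, had a log2 fold change of -0.15 (adjusted p = 0.134 with the block in edgeR), and Pparg, a regulator of fat cell differentiation, -0.12 (adjusted p = 0.908). None of the 7 was called without the block in edgeR or DESeq2, and 0 had an unadjusted p under 0.05 in edgeR. Over all genes tested, edgeR with the block called 3.75%. Between the experiments, 2 of the 7 were called higher in experiment 2 and 0 lower in edgeR. Of the 10 fibroblast markers 6 were also called with the block (Col1a1, Col1a2, Pdgfrb and Fn1 lower, Dcn and Lum higher), and of the markers of other cell types only the skeletal muscle actin gene Acta1 was (141 and 166 TPM in the controls, 155 and 190.4 TPM with PEDF, log2 fold change 0.19, adjusted p = 0.0353 in edgeR with the block, and 0.10 with an adjusted p of 0.490 once length and GC trends were removed). DESeq2 with the block called Pdgfrb and Fn1 (adjusted p = 0.0189 and 0.00223) and gave Dcn, Lum and Acta1 no adjusted p. Between the experiments, edgeR called Col1a1, Pdgfrb, Fn1 and Acta1 higher in experiment 2, and Dcn and Lum lower. The part of these markers in the differences was not tested.

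**Figure D5:**
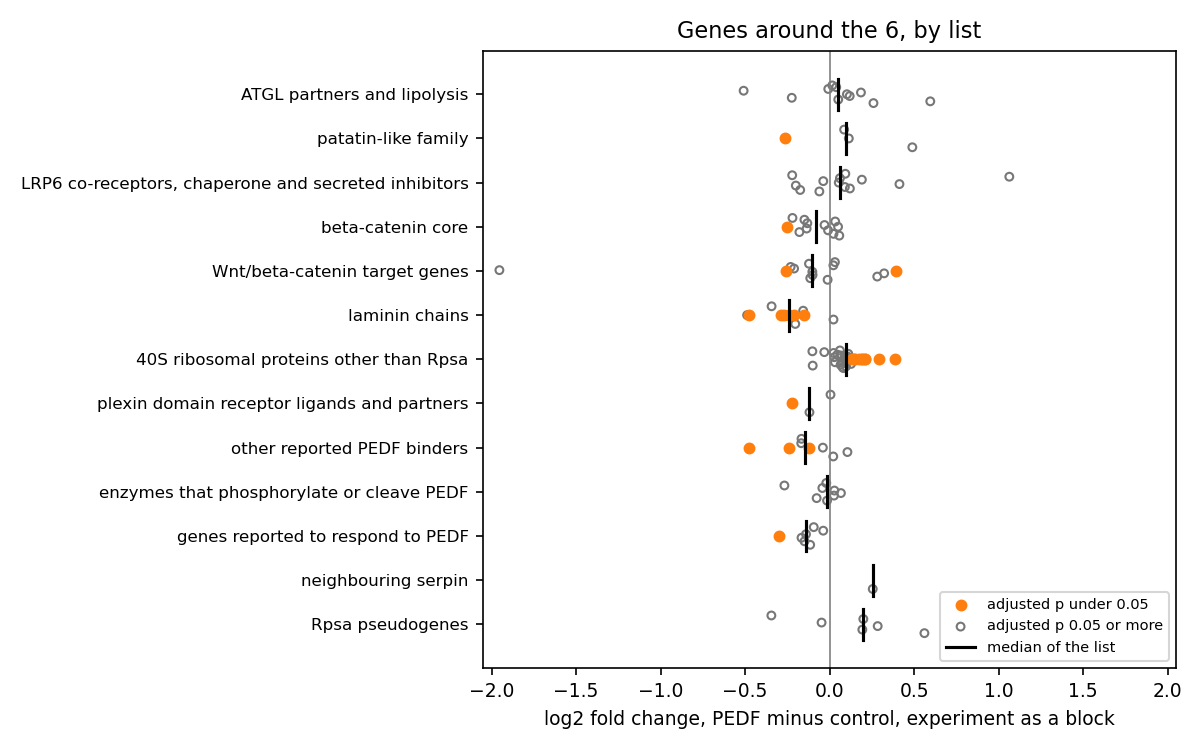
Log2 fold change, PEDF minus control, from the edgeR fit with the block, for the tested genes of each list around the 6 members. Filled orange points have an adjusted p under 0.05, open points do not, and the black bar is the median of the list. Orange points lie above 0 for the 40S ribosomal proteins (10 of 32) and below 0 for the laminin chains (6 of 11). Of all genes tested, 3.75% had an adjusted p under 0.05 in this fit.

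The genes most like each member in their pattern over the 4 libraries were found by the distance between centred log2 CPM values among 10136 genes with a mean CPM of at least 10. The nearest gene was Msmo1 for Serpinf1, Gm15283 for Pnpla2, Gm16286 for Lrp6, Syap1 for Rpsa and Zscan29 for Plxdc2, at distances of 0.00248 to 0.0177. Next came Asap3 and C1galt1 for Serpinf1, Taf3 and Trim47 for Pnpla2, Zdhhc3 and P4ha1 for Lrp6, Mat2b and Gm4737 for Rpsa, and Rsl1d1 and Fip1l1 for Plxdc2. For Plxdc1, compared with 15151 genes with a mean CPM of at least 1, Igsf6, Glud-ps and Ptpro were nearest, at distances of 0.420 to 0.478. With 4 libraries and so many genes, small distances describe these libraries only.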

How the data were processed

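The authors trimmed paired reads with Trimmomatic 0.38, aligned them with HISAT2 2.1.0, counted uniquely mapped reads with featureCounts 1.6.3, and deposited the raw counts per gene. TPM values were deposited by the authors as well, in a second file. The build is given as mm10 (GRCm38). The annotation and strand setting used for counting are not given in the sources used here. No gene length was found beside the counts, so exon lengths and GC content were taken from GENCODE M21. Of 13421 genes with at least 50 counts in a library, 98.4% had a length implied by counts and TPM within 1 percent of it, and 99.4% of genes had a GC content.

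Counts were tested in R 4.3.3 with edgeR 4.0.16 (TMM, robust quasi-likelihood) on 19384 genes (minimum 10 counts, summed over the libraries), with Benjamini-Hochberg adjustment. The treatment was the only term, since the study's methods name no covariate. The standard error is the size of the log2 fold change divided by the root of F. Alternatives were RLE factors, no filter, filterByExpr, DESeq2 1.42.0, the experiment as a block, the block with length and GC trends (natural splines with 5 degrees of freedom) as offsets, limma 3.58.1 on log2(TPM + 1) and log2(TPM + 0.1), and each library left out. DESeq2 without independent filtering was added after seeing the data. Methods were tested on simulated data.

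The design text gives each experiment its own embryos, so the experiment number pairs the libraries. Differences between the experiments, taken in controls and in PEDF libraries, had r = 0.423 over 10722 genes (genes are not replicates). No libraries were identical. A chi-square of the counts, per gene and not adjusted for depth, was smallest for control 1 with PEDF 2 (3.17). It was 4.50 between the libraries of experiment 1 and 5.03 between the PEDF libraries. The pairs with control 2 had the largest values, 6.62 with control 1, 7.48 with PEDF 2 and 14.7 with PEDF 1. What sets control 2 apart was not tested. Named genes were the members, their role partners, neighbours and nearest patterns, and from each list the genes called with or without the block, or the 3 with the smallest p where more passed. The members and lists were chosen with earlier results of these data known. Coding sequences come from GENCODE M21.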

Additional observations from a re-analysis of the deposited data

How the results depend on the processing

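Without the block, no member was called under any alternative, and every alternative gave Rpsa a log2 fold change above 0. With the block in edgeR Rpsa was called (0.13, adjusted p = 0.0424), which raised the members called from 0 to 1, and the block changed no other call among the members. Values near 0 changed sign. Serpinf1 had -0.060 with the block and length correction, -0.052 with length and GC, -0.000703, -0.000709 and -0.000703 in the 3 limma fits, Pnpla2 had -0.012 with the block and length correction, Lrp6 had 0.035 and 0.037 in the corrected fits, and Plxdc2 had -0.00548, -0.00563 and -0.00548 in limma. With each library left out, a lone library being assumed to vary like the others, the range was -0.033 to 0.080 for Serpinf1, -0.039 to 0.15 for Pnpla2, -0.055 to -0.035 for Lrp6, 0.047 to 0.21 for Rpsa, -0.78 to 1.07 for Plxdc1 and -0.031 to 0.067 for Plxdc2, with adjusted p over all alternatives of 0.0424 to 1.00 for Rpsa. For Plxdc1, PEDF replicate 1 decides the sign. The cause of these changes was not tested.

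The number of genes called, 1 without the block, was 106 with no filter, 0 with filterByExpr, 3 in DESeq2 with or without independent filtering, 0 in each limma fit (922, 964 and 793 genes had an unadjusted p under 0.05 with a pseudocount of 0.1, of 1, and of 1 with a mean TPM of at least 1), and 2 to 205 with a library left out, the highest without control replicate 1 and 24 without PEDF replicate 2. With the block it was 726 in edgeR, 424 with the length correction and 421 with length and GC. The share of calls that were higher with PEDF was 44.6% with the block, 26.7% with the length correction and 28.3% with length and GC. In DESeq2 the block gave 119 calls, but independent filtering left only 1817 genes with an adjusted p, and Pnpla2 and Plxdc1 had none. Without that filtering, 58 genes were called.

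Between the experiments, 870 genes and 1 member were called. DESeq2 called 102 genes, or 60 without independent filtering, and edgeR with the experiment as the only term called 11, each with 0 members. Leaving out a library could not be fitted for this difference, since 3 libraries leave no residual degree of freedom. Plxdc1 was below the limits of filterByExpr and of a mean TPM of at least 1. TPM levels recomputed from counts and exon lengths moved by less than 1 SD. Depth limits Plxdc1 most, where 3 counts correspond to 0.168 to 0.203 CPM, and then Pnpla2, on 308 to 406 counts in a library.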
